A study of Homo sapiens with 14 samples.

Results

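The response of A549 cells to dexamethasone (Dex) given together with the PRMT5 inhibitor GSK591 was compared with the response to Dex given together with the type I arginine methyltransferase inhibitor MS023. The libraries were chosen by their labels alone: 8 of the 14 in the series, in 4 groups of 2. The quantity compared was a difference of differences on the log2 scale, the change from GSK591 to GSK591 with Dex minus the change from MS023 to MS023 with Dex. Negative values therefore mean a smaller rise, or a larger fall, with Dex beside GSK591. Below, "difference" stands for this quantity.

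A549 is a human lung adenocarcinoma line. The 4 groups were GSK591 at 1 µM, GSK591 at 1 µM with Dex at 100 nM, MS023 at 1 µM, and MS023 at 1 µM with Dex at 100 nM, each for 15 min and each in 0.01% DMSO. For reference, 2 untreated libraries with the 15 min label and the same DMSO, and 2 libraries of each inhibitor at 3 h, entered the same fit. None of the 14 libraries had Dex without an inhibitor, so each Dex effect is one beside an inhibitor and cannot be set against Dex alone. Nascent RNA was measured by PRO-seq, in which engaged RNA polymerases of permeabilized cells add labelled nucleotides that mark the RNA being made. Nothing in the labels says that the 2 libraries of a group came from separate cultures, so p-values measure the spread between these libraries, which may be technical.

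Dex binds the glucocorticoid receptor, encoded by NR3C1, which then binds DNA at glucocorticoid response elements and raises the transcription of genes such as PER1, TSC22D3 and FKBP5 within minutes. PRMT5 places symmetric dimethyl marks on arginines of histones, spliceosomal proteins and other substrates. Type I enzymes such as PRMT1 and CARM1 place asymmetric marks, and both have been described as coactivators of nuclear receptors.

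Promoter sequences of 3 genes that carry the difference and of 2 classical Dex genes that do not are shown first, so that their start regions can be read side by side. Each is the RefSeq promoter (GRCh38.p14), 300 bases across the start that RefSeq gives, 5′ to 3′ on the gene's strand. For PIM3, PER1 and TSC22D3 the outermost start of the counted GENCODE gene lies upstream of the window. Capitals mark GC boxes, searched as GGGCGG on both strands. KLF15 encodes a transcription factor of metabolic genes (chr3:126357359-126357658, minus strand), HNRNPAB an RNA-binding protein (chr5:178204283-178204582, plus strand) and PIM3 a serine/threonine kinase (chr22:49960522-49960821, plus strand). PER1 encodes a clock repressor (chr17:8152355-8152654, minus strand) and TSC22D3 the glucocorticoid-induced leucine zipper protein (chrX:107775939-107776238, minus strand).
KLF15: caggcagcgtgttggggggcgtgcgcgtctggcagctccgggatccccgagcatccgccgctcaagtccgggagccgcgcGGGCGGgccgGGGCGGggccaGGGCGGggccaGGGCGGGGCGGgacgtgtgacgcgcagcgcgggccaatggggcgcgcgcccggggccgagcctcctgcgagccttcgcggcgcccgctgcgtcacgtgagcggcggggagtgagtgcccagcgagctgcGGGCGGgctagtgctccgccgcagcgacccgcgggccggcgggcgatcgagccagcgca
HNRNPAB: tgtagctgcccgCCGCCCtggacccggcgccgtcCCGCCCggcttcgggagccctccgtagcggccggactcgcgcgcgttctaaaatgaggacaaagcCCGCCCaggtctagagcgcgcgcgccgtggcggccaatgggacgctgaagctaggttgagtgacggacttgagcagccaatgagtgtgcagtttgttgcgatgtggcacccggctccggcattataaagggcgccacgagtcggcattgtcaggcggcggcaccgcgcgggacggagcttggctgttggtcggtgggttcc
PIM3: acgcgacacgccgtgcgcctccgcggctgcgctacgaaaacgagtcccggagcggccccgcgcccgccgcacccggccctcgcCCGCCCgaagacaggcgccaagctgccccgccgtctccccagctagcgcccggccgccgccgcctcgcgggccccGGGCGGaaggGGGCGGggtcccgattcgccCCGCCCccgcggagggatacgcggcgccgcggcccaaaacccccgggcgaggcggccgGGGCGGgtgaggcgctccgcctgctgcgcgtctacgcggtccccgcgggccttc
PER1: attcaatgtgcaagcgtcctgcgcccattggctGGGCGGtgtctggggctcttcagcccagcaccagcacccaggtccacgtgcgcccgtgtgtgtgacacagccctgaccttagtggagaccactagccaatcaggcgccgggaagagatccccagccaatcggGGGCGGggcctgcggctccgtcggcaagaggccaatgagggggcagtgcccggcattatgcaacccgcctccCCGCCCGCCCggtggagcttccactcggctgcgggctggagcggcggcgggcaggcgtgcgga
TSC22D3: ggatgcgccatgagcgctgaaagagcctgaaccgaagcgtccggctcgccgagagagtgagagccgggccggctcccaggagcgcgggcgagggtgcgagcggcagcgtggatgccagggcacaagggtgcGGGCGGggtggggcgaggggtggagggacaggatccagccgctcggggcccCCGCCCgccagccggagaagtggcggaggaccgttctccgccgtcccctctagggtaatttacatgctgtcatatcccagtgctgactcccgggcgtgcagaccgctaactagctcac
The windows held 6 GC boxes in KLF15, 3 in HNRNPAB, 5 in PIM3, 4 in PER1 and 2 in TSC22D3. Their GC content was 80.3%, 67.3%, 81.3%, 69% and 69.3%. The letters AGAACA, a half-site of the glucocorticoid response element, were in none of the 5 windows on either strand. The lowest differences lay at the MIR6724 genes, where the counts are of RNA being made and not of a mature miRNA. For reference, their mature miRNA is shown with its seed (bases 2 to 8) in capitals, as RefSeq gives it for MIR6724-2 and MIR6724-4.
hsa-miR-6724-5p: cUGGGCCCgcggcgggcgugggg

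Total counts per library ran from 5768312, in MS023 replicate 2, to 9606938. Genes of the mitochondrial genome took 48.6% and 46.9% of counts with GSK591, 48.2% and 58% with GSK591 and Dex, 44.5% and 39.8% with MS023, and 49.6% and 52.9% with MS023 and Dex. The pair given GSK591 with Dex differed most, its chi-square over degrees of freedom being 13.6, against 2.07 in the untreated pair. All 6 epithelial markers were counted in every library, KRT8 from 1724 to 3091 counts and EPCAM from 12 to 35. Of 9 markers of leukocytes, fibroblasts and endothelium, CD3E was at 0 in all 14 libraries and COL1A1, the highest, had 40 to 69 counts. The summed level of those 9 was 6.83 to 10.3 CPM with GSK591 (CPM is the count scaled to the library's TMM-adjusted size), 10.8 and 11.5 with GSK591 and Dex, 9.91 and 10.5 with MS023, and 10.3 and 11 with MS023 and Dex.

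The Dex response differed between the inhibitors at 252 of 21910 genes tested (1.15%; edgeR's quasi-likelihood test, Benjamini-Hochberg adjusted p under 0.05). At 234 genes (1.07% of those tested) the value was lower beside GSK591 and at 18 (0.0822%) it was higher. Adding Dex to GSK591 changed 811 genes (3.7%), of which 313 rose (1.43%) and 498 fell (2.27%). Adding Dex to MS023 changed 1966 genes (8.97%), of which 1293 rose (5.9%) and 673 fell (3.07%). The mean of both Dex effects, used to choose genes to show, was called at 2744 genes (12.5%). The count of 252 depended strongly on some single libraries and less on others, which are not listed here. It was 8 without MS023 replicate 1, 31 without GSK591 replicate 1, 57 without replicate 2 of MS023 with Dex, 105 without replicate 2 of GSK591 with Dex, and 490 without replicate 1 of GSK591 with Dex. The last gene inside the threshold was MFSD11 (-0.65, adjusted p 0.0491 by edgeR) and the first outside was ATP1B1 (-0.69, adjusted p 0.0501 by edgeR).

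**Figure D1:**
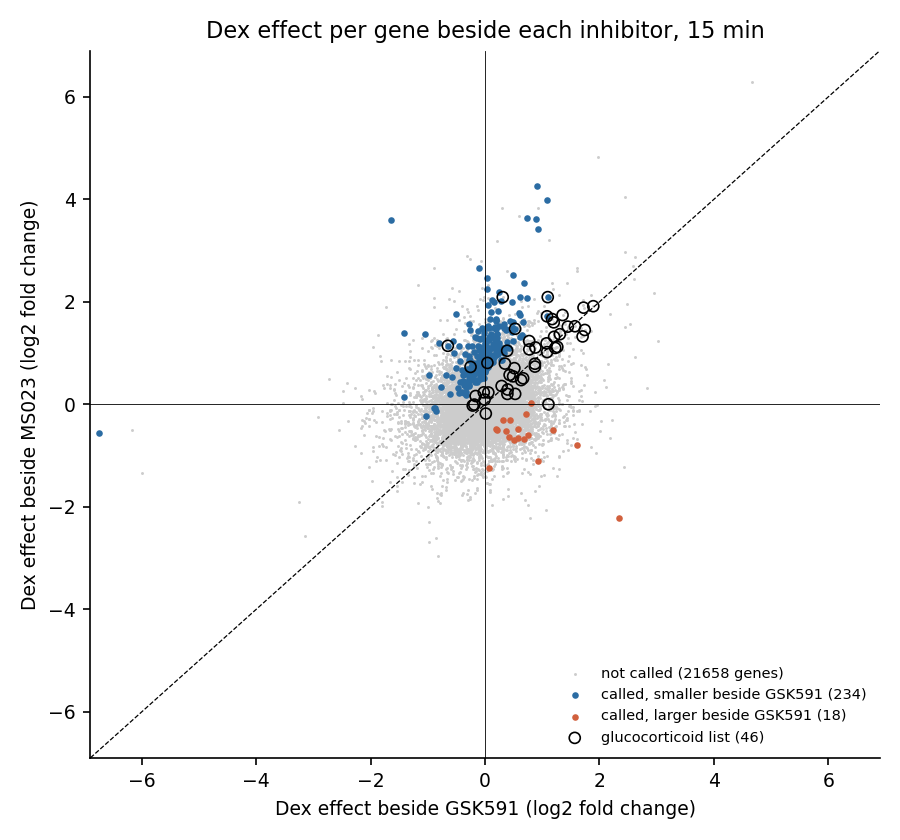
Dex effect beside GSK591 (x axis) against Dex effect beside MS023 (y axis), both as log2 fold changes, for the 21910 genes tested. Blue points are the 234 genes with a lower value beside GSK591, orange points the 18 with a higher one, open circles the 46 genes of the glucocorticoid list, and the dashed line marks equal effects; most blue points lie near 0 on the x axis and above 0 on the y axis.

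Compared directly, the 2 groups given Dex had 0 genes at an adjusted p under 0.05 (0%), with 1659 at an unadjusted p under 0.05 and a smallest adjusted p of 0.11 in edgeR; DESeq2 also called 0. Without replicate 1 of GSK591 with Dex, 78 genes were called, and without its replicate 2, 1 gene. The inhibitors without Dex differed at 239 genes (1.09%), 222 higher (1.01%) and 17 lower (0.0776%) with GSK591. That count was 0 without MS023 replicate 1 and 14 without GSK591 replicate 1. A p that misses the threshold does not show that the 2 Dex groups were alike: the median standard error of a gene in that comparison was 0.22 on the log2 scale.

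The 234 genes with lower values were described group by group, with no test, because the difference chose them. Their median difference was -0.96, made of a median Dex effect of 0.00 beside GSK591 and 0.98 beside MS023. Dex called 215 of them higher beside MS023, where 5.9% of all genes were called higher. Beside GSK591 it called 13 higher and 16 lower, where 1.43% and 2.27% of all genes were. In the libraries without Dex they were apart: the median of GSK591 minus MS023 was 0.65, and with Dex it was -0.31. The gap between the inhibitors alone was the larger of the 2 gaps in 204 of the 234 (87.2%), against 50.6% of all genes tested.

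Set against untreated cells, the median of the 234 genes was 0.40 with GSK591, 0.45 with GSK591 and Dex, -0.22 with MS023 and 0.74 with MS023 and Dex. By library the medians of log2 (CPM + 0.5) minus the untreated mean were 0.48 and 0.30 with GSK591 and -0.37 and -0.07 with MS023. They were 0.49 and 0.34 with GSK591 and Dex and 0.65 and 0.75 with MS023 and Dex. The 2 MS023 libraries were thus the lowest of the 8 and the 2 of MS023 with Dex the highest, and MS023 replicate 1 lay further from untreated than replicate 2.

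**Figure D2:**
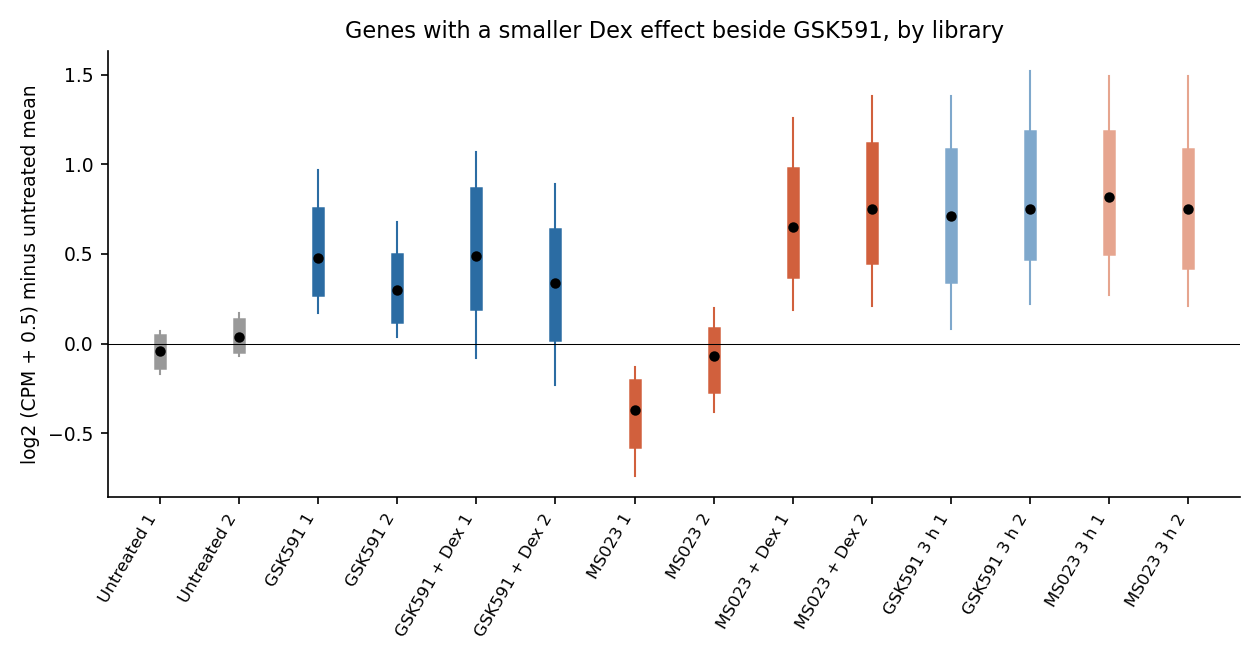
Level of the 234 genes with lower values in each of the 14 libraries, as log2 (CPM + 0.5) minus the untreated mean; points are medians over genes, thick bars the 25th to 75th percentiles and thin lines the 10th to 90th percentiles. MS023 libraries sit below 0 (medians -0.37 and -0.07), and the 3 h libraries of both inhibitors sit at 0.71 to 0.82.

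The 3 h libraries took no part in the contrast that chose the genes. They did enter the same fit, and so its scaling, filter and estimate of the spread, which also bear on which genes were called. After 3 h, 171 of the 234 (73.1%) were called higher than untreated with both inhibitors, against 4.49% of all genes tested, with medians of 0.74 for GSK591 and 0.80 for MS023. The untreated libraries served as reference both here and for the 15 min values. The 4.49% was not matched for level, which was higher in the 234 genes. Protein-coding genes made up 84.2% of the 234 and 65.5% of genes tested, and their median level was 24.6 CPM against 8.29 CPM. RefSeq promoters matched 160 of the 234. Their median GC content was 72.3%, against 65% over 12650 promoters of tested genes, and they held a median of 35 CpG against 25. The 12 matched promoters of the 18 higher genes had 60.7% GC and 19.5 CpG, and the 40 matched promoters of the glucocorticoid list, most of whose genes were not called, had 69% and 28. A GC box was present in 82.5% against 67% (41.7% for the higher genes and 75% for the glucocorticoid list). The half-site AGAACA was in 5.62% against 9.3% (8.33% for the higher genes and 5% for the glucocorticoid list). These shares are small counts: 9 of 160, 1 of 12 and 2 of 40 promoters for the 234 genes, the higher genes and the glucocorticoid list. The GC content of the first 300 transcript bases moved with the result: its median was 73.7% in the 234 genes and 59% in all, and with a trend on it removed from each library 148 genes were called, 137 of them lower, an alternative chosen after seeing the data. GC content of the whole transcript had medians of 50.5% and 49.9%, and with a trend on that removed 232 genes were called, 217 lower.

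HNRNPAB had the smallest p. Its exons overlap those of PHYKPL, and the strand setting of the counting is not given in the sources used here. It stood at 102 and 81.1 CPM with GSK591, 107 and 90.9 CPM with GSK591 and Dex, 50.9 and 58.2 CPM with MS023, and 131 and 149 CPM with MS023 and Dex. The MS023 groups did not overlap, while the GSK591 groups did. The difference was -1.25 ± 0.16 (SE; edgeR adjusted p 1.5e-05), from Dex effects of 0.11 and 1.37.

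PIM3 (ENSG00000198355.4) was at 48.4 and 43.3 CPM with GSK591 and at 38.1 and 37 CPM with Dex added. With MS023 it was at 28.5 and 33.2 CPM, and at 51.2 and 60.1 CPM with Dex added. Both pairs of groups were apart, in opposite directions, although only the rise beside MS023 passed the test (0.86, edgeR adjusted p 4.5e-07; beside GSK591 -0.29, adjusted p 0.16). The difference was -1.15 ± 0.16 (SE; edgeR adjusted p 5.5e-05).

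Opposite Dex calls were found at 3 of the 21910 genes tested, all 3 called in the difference, which opposite effects make large. These were lower with Dex beside GSK591 and higher beside MS023, namely KLF15, FOXA2 and TLNRD1, of which the last 2 were named after their values were seen. KLF15 was at 87.3 and 57.5 CPM with GSK591, 49.8 and 42.2 CPM with GSK591 and Dex, 18.2 and 40.2 CPM with MS023, and 55.7 and 68.7 CPM with MS023 and Dex, against 26.3 and 30.7 CPM untreated. The 2 MS023 replicates lay further apart than the 2 GSK591 replicates in ratio, and neither overlapped its Dex group. Dex effects were -0.65 (edgeR adjusted p 0.028) and 1.14 (3.5e-05), and the difference was -1.79 ± 0.26 (SE; adjusted p 0.00011 by edgeR, 0.069 by DESeq2). After 3 h without Dex, KLF15 had means of 73.7 CPM with GSK591 and 61.9 CPM with MS023. FOXA2 encodes a pioneer factor of endoderm, and its exons overlap AL121722.1. It was at 30.3 and 34.1 CPM with GSK591 and 24.9 and 22.3 CPM with Dex added. With MS023 it was at 19.6 and 24.5 CPM, and at 28 and 31.2 CPM with Dex added.

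**Figure D3:**
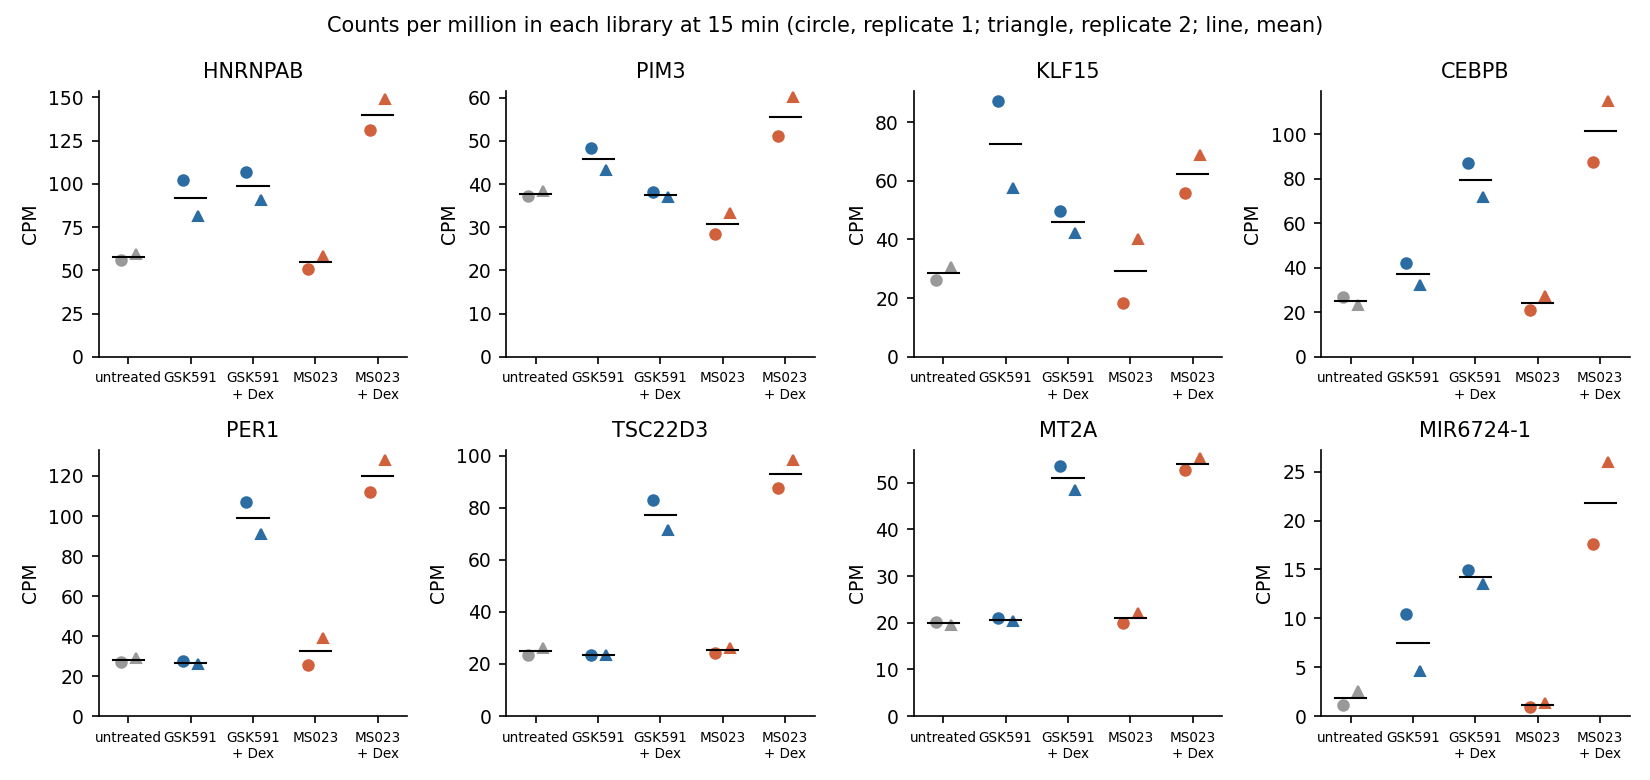
CPM of 8 genes in the 10 libraries at 15 min; circles are replicate 1, triangles replicate 2 and lines group means, with each axis starting at 0. HNRNPAB, PIM3, KLF15 and MIR6724-1 differ between GSK591 and MS023 without Dex, whereas PER1, TSC22D3 and MT2A are at like levels without Dex and at 48.4 CPM or more with Dex beside both inhibitors.

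Further called protein-coding genes had no exon overlap. CRLS1, the cardiolipin synthase, went from 36.1 and 25.3 CPM to 35.9 and 34.1 CPM beside GSK591 and from 11.8 and 16.7 CPM to 38.9 and 48.6 CPM beside MS023 (difference -1.46, edgeR adjusted p 0.00012). ULK2, a kinase that starts autophagy, had Dex effects of 0.33 and 1.56, and SMAD7, an inhibitor of TGF-beta signalling, of -0.31 and 0.61. CITED4, a transcriptional coactivator, rose beside both inhibitors, by 0.74 and 2.08. The forkhead factor FOXC1, the organic cation transporter SLC22A3, KBTBD11 and TARBP1 had differences of -1.22, -1.29, -1.34 and -1.15. HNRNPAB, PIM3, CRLS1 and KBTBD11 were called under all 21 alternatives, as were MIR6724-1 and MIR6724-2.

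The lowest differences were at MIR6724 genes, in the ribosomal DNA repeats of chromosome 21. MIR6724-1 (ENSG00000275950.1, GRCh38 chr21:8205315-8205406, plus strand) was at 10.4 and 4.65 CPM with GSK591, 14.9 and 13.5 CPM with GSK591 and Dex, 0.973 and 1.35 CPM with MS023, and 17.6 and 26 CPM with MS023 and Dex. Its difference was -3.34 ± 0.45 (SE; edgeR adjusted p 5e-05), and those of MIR6724-2, MIR6724-3 and MIR6724-4 were -2.90, -2.51 and -2.91. They are copies within one family of repeats, and how multi-mapped reads were counted is not given in the sources used here, so the 4 values are uncertain and may not be separate observations. Of the 8 miRNA genes listed there, the other 4, MIR3648-1, MIR3648-2, MIR3687-1 and MIR3687-2, had differences of -0.99 to -1.20 that did not pass the test. Their pairs were wide: MIR3648-1 had 293 and 84.4 CPM with GSK591 and 845 and 305 CPM with Dex added.

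Others among the lowest differences were at low levels. ACE, the angiotensin-converting enzyme, overlaps AC113554.1 and was at 3.06 and 3.7 CPM with GSK591, 1.7 and 1.53 CPM with Dex added, 0.865 and 2.55 CPM with MS023 and 4.32 and 4 CPM with Dex added (difference -2.43, edgeR adjusted p 0.014). FGF18, a fibroblast growth factor, had Dex effects of 0.03 and 2.46. AL158152.2, a lincRNA gene, had -0.11 and 2.66, and AC005410.1, a processed pseudogene, 0.90 and 3.62.

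The 18 genes with higher values had a median difference of 1.13, with median Dex effects of 0.58 beside GSK591 and -0.57 beside MS023. In this direction 0 genes were called without MS023 replicate 1, without GSK591 replicate 1 or by DESeq2. NDUFB4, a subunit of respiratory complex I, was at 11.9 and 11 CPM with GSK591 and 19.9 and 17.4 CPM with Dex added, and at 13.5, 10.5, 10.7 and 10.5 CPM in the 4 MS023 libraries, the last 2 with Dex. The pair given GSK591 with Dex thus stood above the other 6 libraries (difference 0.91, edgeR adjusted p 0.04). RNGTT, the mRNA capping enzyme, had a difference of 1.34 and TXNDC16 of 2.40, the latter with 0.353 and 2.15 CPM with GSK591.

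Of 49 glucocorticoid genes listed, 46 were tested. Dex called 25 higher and 1 lower beside GSK591, where 1.43% and 2.27% of all genes tested were. It called 33 higher beside MS023, where 5.9% of all genes were. The medians of the 46 genes were 0.72 and 1.03. In the difference 5 of 46 were lower and 0 higher, where 1.07% and 0.0822% of all genes tested were, and 41 were not called. The median was -0.13 against -0.008 over all genes, and 31 of the 46 lay below 0. In the direct comparison of the Dex groups 0 were called.

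Among genes of receptor feedback and the clock, 0 of 7 were called in the difference, against 1.15% of all genes, a share at which a count of 0 in 7 shows little. PER1 was at 27.4 and 26.1 CPM with GSK591, 107 and 91.2 CPM with Dex added, 25.6 and 39.2 CPM with MS023, and 112 and 128 CPM with Dex added. All 4 Dex libraries lay above all 4 others, and its exons overlap MIR6883 and AC129492.3. The Dex effects were 1.89 and 1.91, and the 95% interval of the difference ran from -0.39 to 0.34. TSC22D3, whose exons overlap NCBP2L, had 23.4 and 23.4 CPM, then 82.9 and 71.3 CPM, beside GSK591. Beside MS023 it had 24.3 and 26.1 CPM, then 87.4 and 98.5 CPM. The interval of its difference was -0.50 to 0.17. FKBP5, the receptor's cochaperone, rose by 1.23 and 1.10.

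Transcription factors held 4 of the 5 glucocorticoid genes called in the difference: 4 of 11 tested were lower, against 1.07% of all genes. CEBPB, a bZIP factor of acute-phase genes whose exons overlap CEBPB-AS1, was at 42 and 32.3 CPM with GSK591, 87 and 71.8 CPM with Dex added, 21.1 and 27.2 CPM with MS023, and 87.7 and 115 CPM with Dex added. After 3 h without Dex its mean was 78.2 CPM with GSK591 and 77.5 CPM with MS023, against 25.1 CPM untreated. With Dex at 15 min CEBPB rose beside both, by 1.10 and 2.09, and differed by -1.0 ± 0.20 (SE; edgeR adjusted p 0.0048). Without MS023 replicate 1 its adjusted p was 0.22, without GSK591 replicate 1 it was 0.15, without replicate 2 of MS023 with Dex 0.097, and with DESeq2 0.12. CEBPD, its relative, rose by 0.52 and 1.47 (difference -0.95, edgeR adjusted p 0.001; 0.063 without MS023 replicate 1 and 0.052 without GSK591 replicate 1). HES4, a Notch target, had a difference of -0.98 (edgeR adjusted p 0.032) that was called under 7 of 21 alternatives. Of the 11 factors, 9 lay below 0 in the difference, with a median of -0.46. Without Dex, 5 of the 11 were called higher with GSK591 than with MS023, against 1.01% of all genes. KLF9, 1 of the 2 above 0, rose by 1.57 and 1.52 beside the 2 inhibitors, and KLF6 by 1.21 and 1.32. Their differences of 0.05 and -0.11 were not called. At 3 h of GSK591 without Dex, 6 of the 11 factors were called higher and 1 lower than untreated, against 1588 and 831 of 21910 genes. At 3 h of MS023 they were 5 and 1, against 1184 and 488 of 21910 genes.

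Genes that restrain inflammatory and growth signalling gave 0 calls of 11 in the difference, against 1.15% over all genes; 9 of the 11 lay below 0, with a median of -0.26. ZFP36, which destabilizes cytokine mRNAs, was at 106 and 103 CPM with GSK591, 275 and 258 CPM with Dex added, 93.5 and 96.4 CPM with MS023, and 303 and 332 CPM with Dex added. The Dex libraries were high beside both inhibitors, and the difference was -0.39 (edgeR adjusted p 0.20). NFKBIA, the inhibitor of NF-kappa-B, had -0.49 (adjusted p 0.089), DUSP1, a MAP kinase phosphatase, -0.30 (0.48), and ERRFI1, a feedback inhibitor of EGFR, 0.29 (0.54), all by edgeR.

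Metabolic and other targets gave 1 call of 17, against 1.15% over all genes: IRS2, an adaptor of the insulin receptor whose exons overlap AL162497.1. It was at 62.8 and 59.3 CPM with GSK591, 138 and 120 CPM with Dex added, 47.8 and 49.5 CPM with MS023, and 148 and 172 CPM with Dex added. It rose beside both, by 1.08 and 1.72, with a difference of -0.63 ± 0.15 (SE; edgeR adjusted p 0.017). Its adjusted p was 0.22 without MS023 replicate 1, 0.18 without GSK591 replicate 1, and 0.42 (difference -0.31) with the trend on 5′ GC content removed. The metallothionein MT2A (-0.06), the lipase inhibitor ANGPTL4 (-0.07) and CAVIN2 (0.38) were not called, with MT2A at 53.6, 48.4, 52.8 and 55.3 CPM in the 4 Dex libraries.

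**Figure D4:**
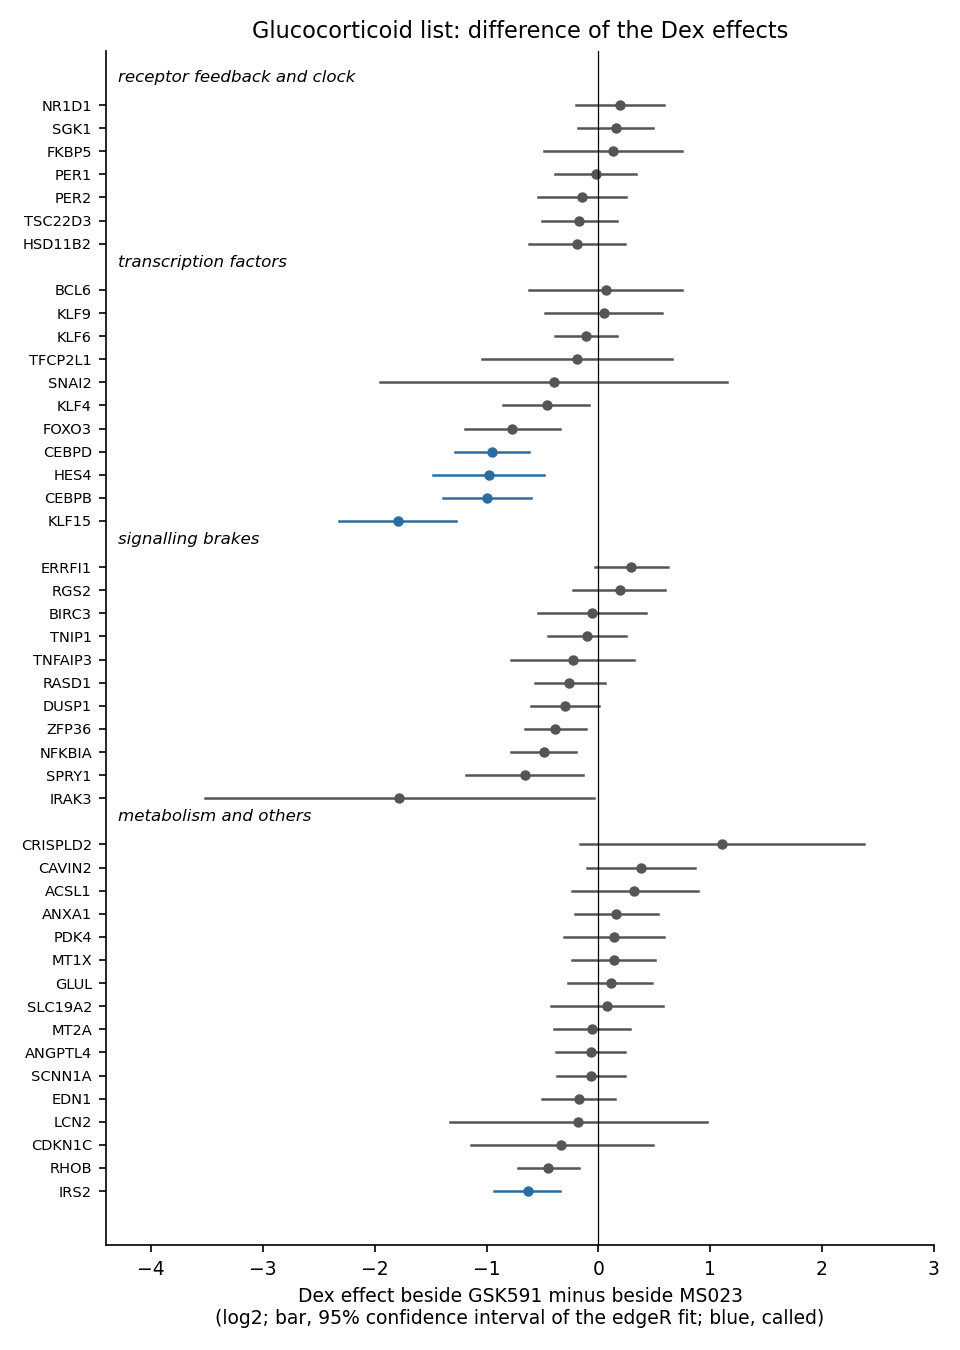
Difference of the Dex effects (log2, GSK591 minus MS023) for the 46 glucocorticoid genes tested except 1 that is not shown, by role; bars are 95% confidence intervals of the edgeR fit and blue marks the 5 called genes. KLF15 lies lowest at -1.79 among the called genes, and the intervals of PER1, TSC22D3 and MT2A include 0.

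NR3C1 was at 72.2 and 80.2 CPM with GSK591, 62.1 and 57.7 CPM with Dex added, 57.6 and 72.1 CPM with MS023, and 71.7 and 72.5 CPM with Dex added, a difference of -0.51 (edgeR adjusted p 0.098). PRMT5 had 0.41, PRMT1 -0.08, CARM1 0.02 and SNRPB, a spliceosomal substrate of PRMT5, 0.14, none called. Of 14 genes tested for arginine methylation, where 1.15% of all genes were called, COPRS, a PRMT5 cofactor, was called (-1.22, edgeR adjusted p 0.011). Over all genes tested 1.07% were lower and 0.0822% higher. Of 27 immediate early genes, JUND (-0.92) and KLF2 (-0.96) were lower and 0 higher. Of 24 p53 targets, PHLDA3 was lower (-0.73). Of 12 inflammatory genes, 18 genes of the receptor's complexes and 23 of pausing and elongation, 0 were called in the difference.

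Outside the glucocorticoid lists, genes with the largest mean Dex effects included MIR6724-1, MIR6724-2 and AC005410.1, given above. LOC122526776, an antisense gene whose exons overlap BCL6, rose by 2.58 and 2.69 beside the 2 inhibitors. AL121772.2, an antisense gene, was at 0.471 and 0.835 CPM with GSK591 and 4.24 and 3.83 CPM with Dex added, and rose by 2.60 and 2.45. CIROP, whose exons overlap C14orf119, fell by 1.25 and 1.54. SLC52A2, a riboflavin transporter whose exons overlap FBXL6, fell by 2.16 and 0.95, a difference of -1.21 that was not called (edgeR adjusted p 0.20). LOC100996583, AL513320.1 and AC145543.1 had Dex effects of -1.88 and -1.03, -0.92 and -1.66, and -1.23 and -1.19, and their differences of -0.85, 0.73 and -0.04 were not called.

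In the direct comparison of the Dex groups the 5 genes of smallest p in each direction were not called. PIM3 (-0.57, edgeR adjusted p 0.11), HNRNPAB (-0.50, 0.17), CHRNA5, a nicotinic receptor subunit (-1.04, 0.17), MIR6724-2 (-0.85, 0.18) and ZNF425 (-0.80, 0.26) had negative values, GSK591 with Dex minus MS023 with Dex. NDUFB4 (0.82, 0.11), AL121949.2 (1.23, 0.33), AC004895.1 (0.87, 0.33), the lipid transfer protein gene VPS13C (0.64, 0.33) and PUS7L (0.93, 0.33) had positive ones. CHRNA5 shares exon positions with CHRNA3 and AC027228.2. It was at 4.67 and 7.04 CPM with GSK591 and Dex and at 10 and 13.9 CPM with MS023 and Dex, so its 2 Dex groups did not overlap.

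**Figure D5:**
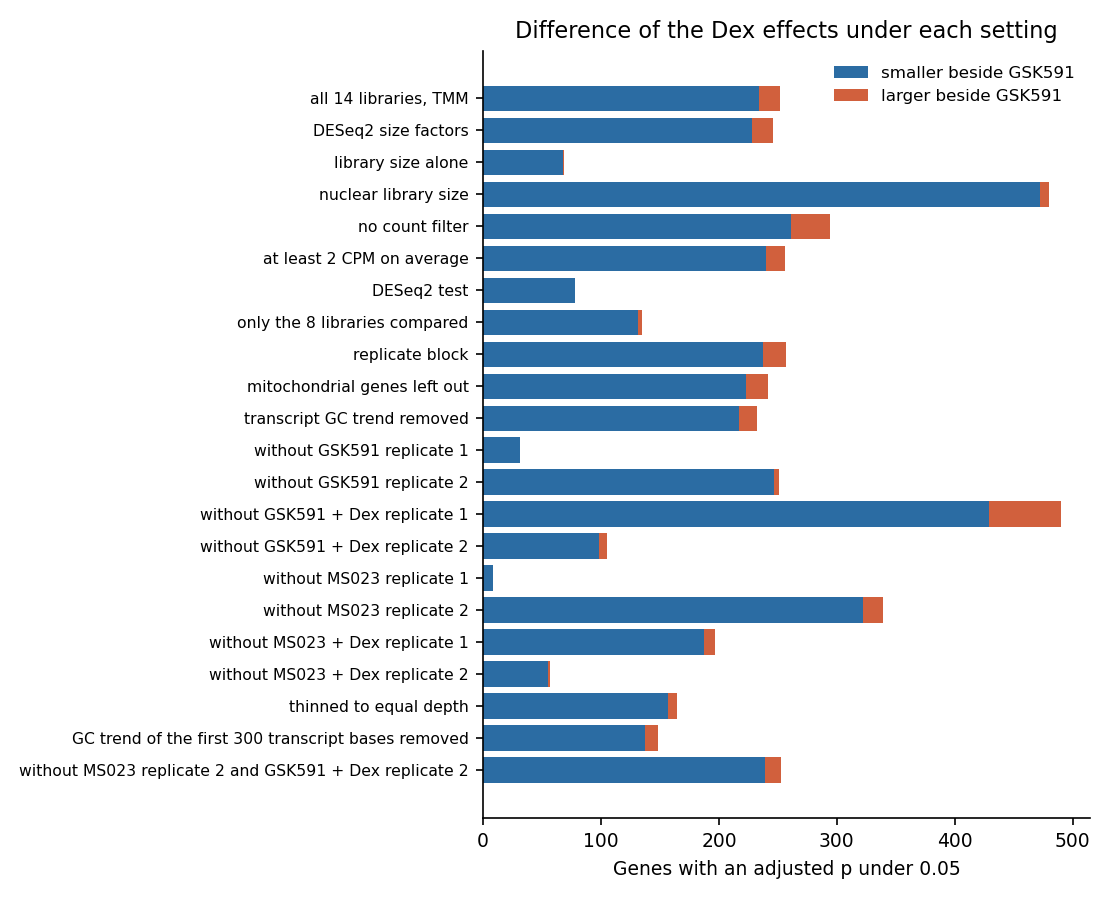
Number of genes called in the difference under each setting, with all 14 libraries and TMM scaling at the top; blue bars count genes with a smaller value beside GSK591 and orange bars those with a larger one. Blue is the larger share in every bar shown, and the total runs from 8 to 490.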

How the data were processed

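PRO-seq libraries of A549 cells were analysed from read counts per gene that the authors deposited. Per the submitters' processing notes, featureCounts 2.0.1 (Subread) and hg38 were used. The aligner, counted feature, strand setting and duplicate handling are not given in the sources used here. The authors' own DESeq2 tables were not used. The 58780 gene identifiers all matched GENCODE 29, which filled 22731 blank symbols.

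All 14 libraries (7 groups, 7 residual degrees of freedom) entered one edgeR 4.0.16 quasi-likelihood fit (R 4.3.3), scaled by TMM and filtered by filterByExpr, which kept 21910 genes; the biological coefficient of variation was 0.073. A Benjamini-Hochberg adjusted p under 0.05 was the threshold for a call. CPM used TMM-scaled library sizes. Without a spike-in, changes are relative to the bulk of genes. Counts of 5768312 to 9606938 per library limit precision at low genes. On simulated data the median size of the known changes was recovered and p-values of unchanged genes held their level. That does not mean that most changed genes were called, so real differences may be missed. The share of false calls was on average above the nominal level, so the called lists may hold somewhat more false calls than the threshold states.

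Named genes had at least 2 CPM on average over the 8 libraries. They were the 8 lowest and 8 highest called differences, the 10 called protein-coding genes of smallest p without exon overlap, the 5 of smallest p in each direction between the Dex groups, the 12 glucocorticoid genes of smallest p in the mean Dex effect and all called ones, the 5 largest rises and 5 largest falls in that mean outside the glucocorticoid lists, and PRMT1, PRMT5, CARM1, SNRPB and NR3C1. Of the glucocorticoid genes chosen by this rule, 1 is not reported here. Further list members, such as KLF9, FKBP5 and COPRS, are named outside that rule. Exon overlaps with other genes are named for some genes, not for all. Members and lists were chosen with earlier results of these data known. Alternatives covered scaling, filters, DESeq2 1.42.0, fewer libraries, a replicate block, GC trends and equal depth.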

Additional observations from a re-analysis of the deposited data

Results flagged for a closer look

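The Dex effect differed between the inhibitors, by the test of the difference itself (edgeR, adjusted p under 0.05), at the following named genes; values are log2 differences, GSK591 minus MS023. Lower beside GSK591 were the ribosomal DNA miRNA genes and other genes with the lowest values, MIR6724-1 (-3.34), MIR6724-4 (-2.91), MIR6724-2 (-2.90), AL158152.2 (-2.77), AC005410.1 (-2.72), MIR6724-3 (-2.51), ACE (-2.43) and FGF18 (-2.42). Also lower were KLF15 (-1.79), CRLS1 (-1.46), KBTBD11 (-1.34), CITED4 (-1.34), CHRNA5 (-1.33), SLC22A3 (-1.29), HNRNPAB (-1.25), ULK2 (-1.23), FOXC1 (-1.22), PIM3 (-1.15), TARBP1 (-1.15), CEBPB (-1.0), HES4 (-0.98), CEBPD (-0.95), SMAD7 (-0.92) and IRS2 (-0.63). Higher beside GSK591 were NDUFB4 (0.91), AC004895.1 (1.21), FAM218A (1.23), SPATA7 (1.31), RNGTT (1.34), MORC2-AS1 (1.36), AL121949.2 (1.68), LOC107987091 (2.03) and TXNDC16 (2.40). Some calls were lost under many alternatives. Where a count is out of 20, DESeq2 gave the gene no adjusted p and was left out. RNGTT was called under 4 of 20, SPATA7 under 6, MORC2-AS1 under 7, FAM218A and AC004895.1 under 9, CHRNA5, AL121949.2 and TXNDC16 under 10 and LOC107987091 under 12 of 20, and NDUFB4 and HES4 under 7 and IRS2 under 13 of 21.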

How the results depend on the processing

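The count of genes called in the difference (252) was 69 with library size alone, 480 with nuclear library size, 78 with DESeq2, 135 with the 8 libraries alone, 164 thinned to equal depth and 148 with the trend on 5′ GC content removed. Leaving out 1 library gave 8 to 490. Thinning, the 5′ GC trend, and leaving out MS023 replicate 2 and replicate 2 of GSK591 with Dex together, were chosen after seeing the data. The direct count of 0 was 35 with no count filter, 1 thinned, 3 without those 2 libraries, and 0 to 78 without 1 library. For the inhibitors alone (239) it was 29 with library size alone, 83 with DESeq2, 152 thinned, 150 with the 5′ GC trend removed, 435 without the 2 libraries, and 0 to 322 without 1 library. Beside GSK591 (811) it was 1472 with library size alone (98 higher and 1374 lower, from 313 and 498; 221 and 677 with nuclear library size), 413 with DESeq2, 392 without the 2 libraries, and 339 to 1007 without 1 library. Beside MS023 (1966) it was 1096 with DESeq2 and 641 to 2213 without 1 library; library size alone turned the split from 1293 higher and 673 lower to 533 and 1317, and nuclear library size to 1568 and 362. For the mean Dex effect (2744) it was 4392 with library size alone (473 higher and 3919 lower), 1585 with DESeq2, and 1661 to 2729 without 1 library. The share of lower genes called higher at 3 h (73.1%) was 82.4% with library size alone, 50.2% with nuclear library size, 79.5% with DESeq2 and 60.4% to 87.5% without 1 library. Where an arm was left with 1 library, it was assumed to vary like the others. The causes were not tested beyond what fewer libraries or reads entail.

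With the replicate number as a block, 257 genes were called in the difference, 245 of them shared. Deviations of same-numbered libraries correlated at -0.043 to 0.12 over 6 pairs of groups. The highest were 0.12, for GSK591 without and with Dex, and 0.078, for MS023 without and with Dex. Noise at single genes lowers such values, so they cannot show whether same-numbered libraries were handled together. Of the values of named genes in the difference, 1021 kept their side of the threshold, 165 lost a call and 10 gained one across alternatives, and none of the called ones reversed. These totals include named genes that were not called, such as PER1 and MT2A. Only called genes could lose a call, so the 165 losses fall on those alone.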
